A study of Mus musculus with 4 samples.

Results

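The genes described here are the folding, quality control and export machinery of the endoplasmic reticulum (ER), the compartment in which a matrix-secreting cell makes its collagen. A list of 35 genes was drawn up by function and matched to the amplicon names of the deposited table. Of these, 34 were found among 23930 amplicons, and Sec61b was not analysed here. All 34 passed the filter on low values (at least 1 RPM in at least 2 libraries) and were among the 11638 genes tested.

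The cells were primary progenitors from the subcutaneous tissue of C57BL/6 mice with floxed Gnas, the gene of the stimulatory G protein alpha subunit. The 2 mutant libraries came from cells given Ad-Cre, an adenovirus carrying Cre recombinase (genotype Gnas-/-). The 2 control libraries came from cells given Ad-GFP, an adenovirus carrying green fluorescent protein (genotype wild type). All cells therefore came from mice with floxed Gnas and were given an adenovirus, and all were kept in osteogenic medium for 7 days. The groups differ in the viral cargo as well as in Gnas, and the 2 cannot be told apart. Nothing in the labels ties the libraries of a group to different mice or dishes. A p-value here reflects the spread between libraries, which may be technical between the mutants. Between the 2 controls this spread includes differences in Xist and in macrophage markers, given below. Gnas itself is not analysed here, so the genotype was not checked on its transcript.

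Values are RPM, the reads of 1 amplicon scaled to 1000000 reads of the library, and the libraries held 13483518 to 18455811 reads. The controls stood further apart than the mutants did. Past 2-fold on the log2(RPM + 1) scale, control 1 was above control 2 for 1227 genes (10.5% of those tested) and below it for 889 (7.64%), against 348 genes (2.99%) between the mutants in either direction. Stromal markers were high in every library (Col1a1 at 5332 RPM or more, Pdgfra at 92.1 or more). The 6 skeletal muscle markers summed to 25.8 and 74.6 RPM in the mutants, 52.6 RPM in control 1 and 28.2 RPM in control 2, with Myod1 and Ckm at 0. The 4 keratinocyte markers summed to at most 0.740 RPM and the 3 Schwann cell markers to at most 1.83 RPM. The 10 macrophage markers summed to 30.2 and 16.9 RPM in the mutants, 49.7 RPM in control 1 and 966 RPM in control 2. The 5 endothelial markers summed to 18.3 and 36.6 RPM in the mutants, 9.97 RPM in control 1 and 84.8 RPM in control 2. Xist, expressed from the inactive X of females, stood at 395 and 419 RPM in the mutants, 165 RPM in control 1 and 0 in control 2. The part of these differences in the results was not tested. In bulk RNA, fewer cells of a type and less RNA per cell cannot be told apart.

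As background, a secreted protein enters the ER through the Sec61 channel, loses its signal peptide, and is folded by chaperones and disulfide isomerases before vesicles with a COPII coat carry it to the Golgi. When unfolded proteins build up, the sensors IRE1 (gene Ern1), ATF6 and PERK (gene Eif2ak3) start the unfolded protein response. IRE1 splices Xbp1 messenger RNA, and the factors XBP1 and ATF6 then raise the genes of chaperones and of ER-associated degradation. Procollagen needs more help, from the collagen chaperone HSP47 (gene Serpinh1), from prolyl isomerases and from TANGO1 (gene Mia3), which loads the long molecule into carriers.

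The ER chaperone genes were highest in control 1, and 1 of them, Calr, also stood apart in control 2, where it was low. All 34 genes together took 1.02% and 0.895% of the reads in the mutants, 2.93% in control 1 and 0.987% in control 2. The chaperones and disulfide isomerases set this difference, with 0.604% and 0.504% in the mutants, 2.40% in control 1 and 0.546% in control 2. Control 1 was the highest of the 4 libraries for 25 of 34 members, against 28.4% of all tested genes, and it lay over 2-fold above each of the other 3 libraries for 13 members, against 2.5% of all tested genes. Serpinh1, Fkbp7, Fkbp10, Sec23a, Sec24d, Kdelr2, Kdelr3, Ssr1 and Creb3l1 were not highest in control 1, whereas the procollagen export gene Mia3 was.

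Set against both controls together, none of the 34 genes passed the threshold (limma on log2(RPM + 1), adjusted p below 0.05), in a comparison that called 1.73% of all tested genes higher and 0.576% lower in the mutants. At an unadjusted p below 0.05, 4 members were lower (Pdia6, Xbp1, Ssr1 and Ssr3), against 17.9% of all tested genes in either direction. An edgeR quasi-likelihood test on the recovered reads also called 0 members, against 66 genes higher and 27 lower of the 11638 tested. DESeq2 called 8 members, all lower (Creld2, Hspa5, Hyou1, Manf, Pdia6, Sdf2l1, Ssr1 and Xbp1), against 598 genes higher and 493 lower of the 11638. The median log2 fold change was -0.59 over the members and 0.08 over all tested genes. Both mutants lay below both controls for 21 members, against 21.1% of all tested genes, and above both for 4 members, against 30.6%.

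Each control gave a different answer when taken singly, and these comparisons share the mutant libraries. Against control 1, 21 members were lower in the mutants and 1 was higher, against 6.82% and 9.15% of all tested genes, and the median log2 fold change was -1.04 over the members and 0.02 over all tested genes. Against control 2, 4 members were lower and 1 was higher, against 6.89% and 13.8% of all tested genes, and the medians were -0.17 and 0.14. With a lone control, that library is assumed to vary like the mutants, so these p-values rest on the spread between 2 mutant libraries. With no filter on low values, 0 members and 0 genes of the whole table passed in either comparison.

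**Figure D1:**
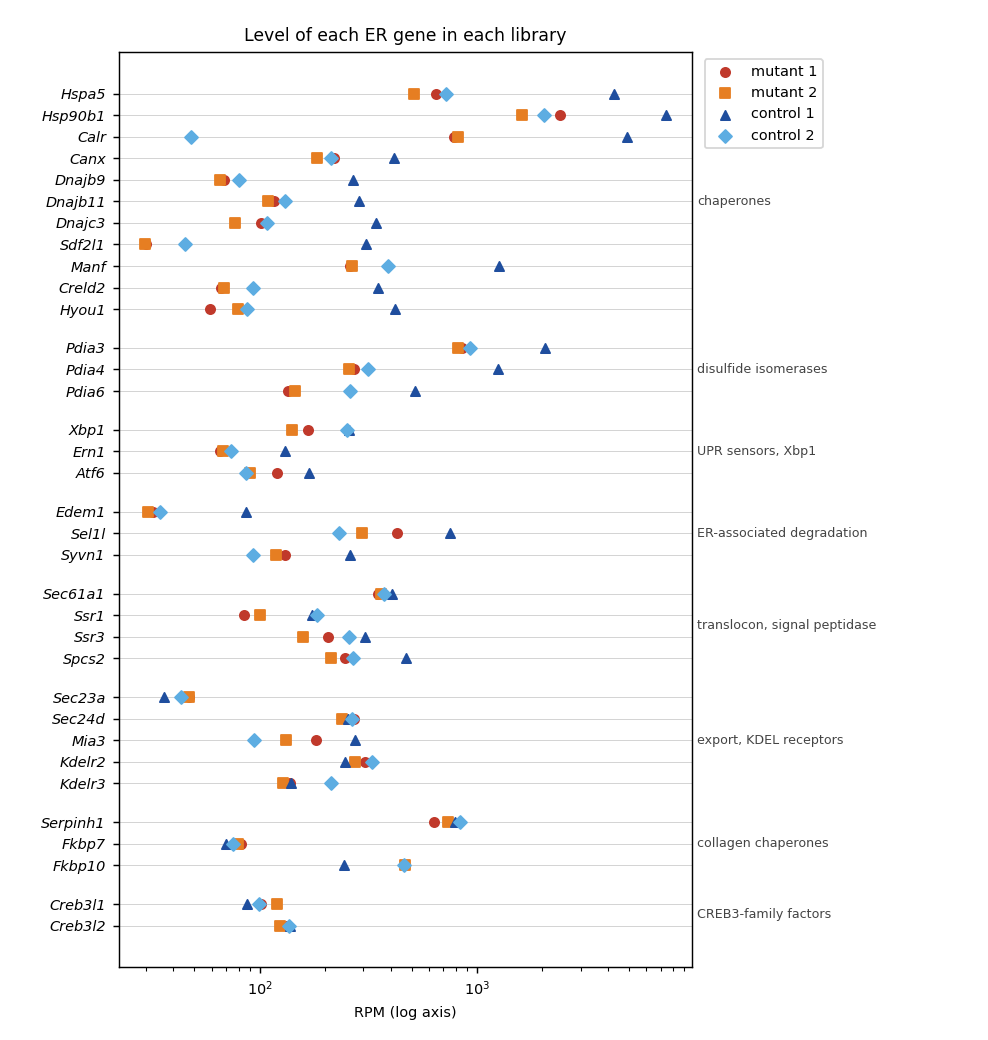
RPM of each of the 34 genes in the 4 libraries (log axis), grouped by role; each point is 1 library. Control 1 stands to the right of the other 3 libraries for the chaperones and disulfide isomerases, while the libraries lie close together for Serpinh1, Fkbp7 and the CREB3-family factors.

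All 11 chaperones of the ER lumen and membrane were lower in the mutants than in control 1, with log2 fold changes of -3.33 to -1.05. Hspa5, the gene of BiP, the central ER chaperone, stood at 647 and 512 RPM in the mutants, against 4253 RPM in control 1 and 720.4 RPM in control 2. The mutants and control 2 lay together and control 1 lay 5.90-fold above control 2. Over both controls Hspa5 averaged 579 ± 94.9 RPM in the mutants and 2487 ± 2498 RPM in the controls (SD, n = 2 each), so the control SD was as large as the control mean. The log2 fold change was -1.60 over both controls (95% interval -3.72 to 0.51, adjusted p = 0.390), -2.88 over control 1 (adjusted p = 0.000664) and -0.32 over control 2 (95% interval -0.85 to 0.21, adjusted p = 0.338). The gene lies on chromosome 2 at 34771970 to 34777547, plus strand (GENCODE annotation of GRCm38; the span of the gene and not of the amplicon).

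Hsp90b1, which encodes the ER member of the HSP90 family, stood at 2421 and 1613 RPM in the mutants, 7375 RPM in control 1 and 2039.9 RPM in control 2, which lay between the mutants. Hyou1, a nucleotide exchange factor for BiP, stood at 59.0 and 79.3 RPM in the mutants, 421 RPM in control 1 and 87.1 RPM in control 2. Both were lower in the mutants than in control 1 (log2 fold changes -1.90 and -2.60, adjusted p = 0.00835 and 0.000868). Neither passed against control 2 (-0.05 and -0.34, adjusted p = 0.927 and 0.343).

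The J-domain partners of BiP kept the same order of libraries. Dnajb9 stood at 68.4 and 65.6 RPM in the mutants, 268 RPM in control 1 and 80.5 RPM in control 2. Dnajb11, which hands unfolded chains to BiP, stood at 116 and 109 RPM in the mutants, 286 RPM in control 1 and 131 RPM in control 2. Dnajc3 stood at 102 and 77.0 RPM in the mutants, 342 RPM in control 1 and 109 RPM in control 2. The mutants were below both controls for each gene, and only the difference from control 1 passed (log2 fold changes -1.99, -1.34 and -1.94, adjusted p = 0.00111, 0.00422 and 0.00217).

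Sdf2l1, a partner of Dnajb11 in the chaperone complex, had the largest fold against control 1 of the 34 genes. It stood at 30.0 and 29.5 RPM in the mutants, 308 RPM in control 1 and 45.2 RPM in control 2, a mutant mean that was 0.0965 of control 1 (log2 fold change -3.33, adjusted p = 0.000284) and 0.657 of control 2 (-0.59, adjusted p = 0.107). Manf, a small BiP-binding protein that is also secreted, stood at 261 and 267 RPM in the mutants, 1266 RPM in control 1 and 390.3 RPM in control 2. Creld2, an ER protein induced by unfolded proteins, stood at 66.2 and 68.1 RPM in the mutants, 350.2 RPM in control 1 and 93.3 RPM in control 2. For Sdf2l1, Manf and Creld2 the mutants lay close together and below both controls. Manf and Creld2 were lower than control 1 (log2 fold changes -2.26 and -2.37, adjusted p = 0.000704 and 0.000586), and neither passed against control 2 (-0.56 and -0.47, adjusted p = 0.0738 and 0.133).

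The lectin chaperones of glycoprotein folding differed from each other. Canx, which encodes the membrane-bound calnexin, stood at 219.9 and 184 RPM in the mutants, 417 RPM in control 1 and 212 RPM in control 2, and was lower than control 1 (log2 fold change -1.05, adjusted p = 0.0145). Calr, which encodes its soluble relative calreticulin, stood at 786 and 815 RPM in the mutants, 4910.1 RPM in control 1 and 48.2 RPM in control 2. Calr was the 1 member that lay far below the mutants in control 2, so the mutants were lower than control 1 (-2.62, adjusted p = 0.000711) and higher than control 2 (4.03, adjusted p = 7.63e-05). By RPM, control 1 held 102-fold more Calr than control 2, against 1.96-fold for Canx.

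Chaperone promoters often carry the ER stress response element (ERSE), to which ATF6 and the factor NF-Y bind. It was searched for as CCAAT and CCACG with 9 bases of any kind between them, on both strands, in windows of 250 bases before to 50 bases after the gene start (RefSeq, GRCm38.p6). A match occurred in 8 of the 27 members with a window, against 0.119% of all 32851 windows and 0.158% of the tested genes with a window. The matches are shown because they sit at 8 of the genes that were high in control 1. The lower values of these genes in the mutants than in control 1 therefore follow from that choice. The list holds chaperone genes and the motif was chosen with earlier results known, so its share among the members was not tested. Each sequence runs 5′ to 3′ on the strand of the gene with the match in capitals, and Calr, Creld2 and the second Hsp90b1 match hold it as the reverse complement (CGTGG, 9 bases, ATTGG).
Hspa5 (chr2:34772010-34772058, plus strand): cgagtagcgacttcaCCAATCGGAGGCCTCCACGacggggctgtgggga
Hsp90b1, first match (chr10:86705623-86705671, minus strand): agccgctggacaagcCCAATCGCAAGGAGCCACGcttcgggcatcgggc
Hsp90b1, second match (chr10:86705518-86705566, minus strand): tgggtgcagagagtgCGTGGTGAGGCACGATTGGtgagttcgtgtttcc
Calr (chr8:84847060-84847108, minus strand): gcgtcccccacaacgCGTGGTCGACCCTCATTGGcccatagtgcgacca
Canx (chr11:50325785-50325833, minus strand): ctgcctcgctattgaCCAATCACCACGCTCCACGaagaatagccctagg
Pdia6 (chr12:17266476-17266524, plus strand): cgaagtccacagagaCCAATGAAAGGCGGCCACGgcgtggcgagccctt
Dnajc3 (chr14:118937812-118937860, plus strand): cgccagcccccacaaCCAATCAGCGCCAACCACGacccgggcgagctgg
Creld2 (chr15:88819505-88819553, plus strand): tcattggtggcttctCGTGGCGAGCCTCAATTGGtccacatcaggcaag
Syvn1 (chr19:6046517-6046565, plus strand): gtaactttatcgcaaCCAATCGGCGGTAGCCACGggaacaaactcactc

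The matches began 44 to 212 bases before the RefSeq gene start. GENCODE places the start of Hspa5 further upstream, so by that annotation its match lies inside the gene. All 8 genes with a match were lower in the mutants than in control 1, with a median log2 fold change of -1.92, and the 19 members with a window and no match had a median of -0.91, with 11 of 19 lower. Over control 2 the medians were -0.19 with a match and -0.21 without one. The groups also differ in role. Apart from Syvn1, the genes with a match are chaperones or disulfide isomerases, while those without one include translocon, export, collagen and CREB3-family genes. The chaperones and isomerases without a match (Dnajb9, Dnajb11, Sdf2l1, Pdia3 and Pdia4) had -1.99, -1.34, -3.33, -1.30 and -2.23 over control 1. Match and role therefore cannot be told apart in these medians. Several of the strongest differences came without a match, among them Sdf2l1 and Pdia4, and the 7 members with no window in the table, Hyou1 and Manf among them, could not be searched. A second element (ATTGG and CCACG with 1 base between them) was found in the window of Dnajb11 alone among the members, against 0.0365% of all windows. The element TGACGTGG was found in the windows of Sec23a, Sec24d and Kdelr3, against 0.676% of all windows, and none of these 3 genes differed from control 1. A match describes letters and is not evidence of binding.

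**Figure D2:**
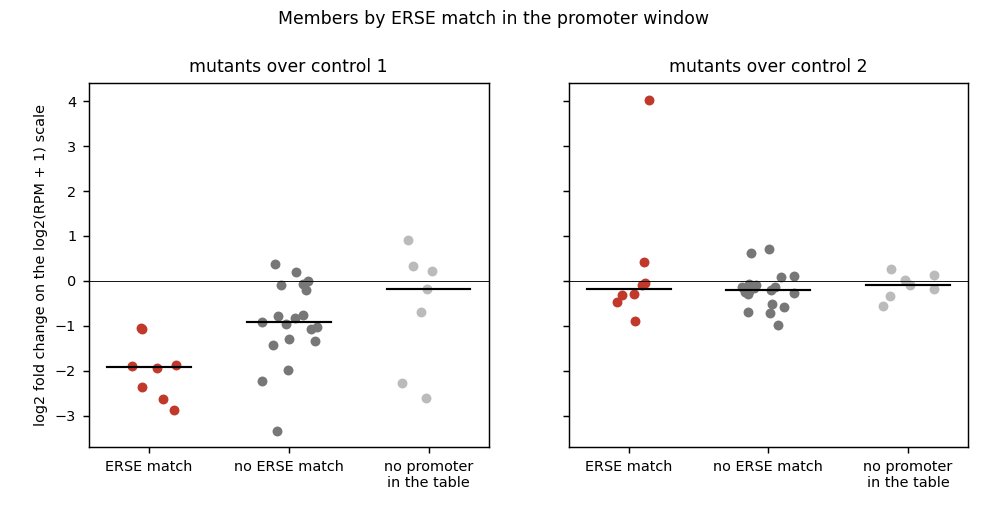
Log2 fold change of each member over control 1 (left) and over control 2 (right), on the log2(RPM + 1) scale, for the 8 members with an ERSE match, the 19 with a window and no match, and the 7 with no window in the table; each point is 1 gene and the bar is the median. Over control 1 every gene with a match lies at -1.05 or below, and over control 2 the medians of the first 2 groups are -0.19 and -0.21.

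The 3 disulfide isomerases of the member list, which make and shuffle the disulfide bonds of secreted proteins, were all lower in the mutants than in control 1. The 30 other chaperones and foldases tested varied more. Their log2 fold changes over control 1 ran from -2.01 to 0.92 with a median of -0.33, against 0.02 over all tested genes. They were -0.49 for P4hb, -0.06 for Pdia5, -0.08 for Txndc5 and -1.06 for Txndc11. Pdia3, which works on glycoproteins held by calnexin and calreticulin, stood at 856 and 814 RPM in the mutants, 2063 RPM in control 1 and 932 RPM in control 2. Pdia4 stood at 270.1 and 259 RPM in the mutants, 1247 RPM in control 1 and 313 RPM in control 2. For both, control 2 lay closer to the mutants than to control 1, and the difference from control 2 did not pass (adjusted p = 0.604 and 0.379). Pdia6, which also binds and restrains the sensor IRE1, stood at 135 and 145 RPM in the mutants, 518 RPM in control 1 and 261 RPM in control 2, so the groups did not overlap. The log2 fold change of Pdia6 was -1.39 over both controls (SE 0.36, adjusted p = 0.146), -1.88 over control 1 (adjusted p = 0.00129) and -0.90 over control 2 (adjusted p = 0.0182).

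Of the sensors, Ern1 and Atf6 are among the 34 members. Ern1 stood at 65.5 and 67.8 RPM in the mutants, 131 RPM in control 1 and 73.6 RPM in control 2, and was lower than control 1 (log2 fold change -0.96, adjusted p = 0.0169). Atf6 stood at 120.0 and 90.2 RPM in the mutants, 168 RPM in control 1 and 86.8 RPM in control 2, with no difference past the threshold. Xbp1, the target of IRE1 and an activator of chaperone and degradation genes, followed another order. It stood at 167 and 141 RPM in the mutants, against 258 RPM in control 1 and 253 RPM in control 2, so the controls agreed and both mutants lay below them. The log2 fold change of Xbp1 was -0.73 over both controls (95% interval -1.25 to -0.21, adjusted p = 0.166), -0.75 over control 1 (adjusted p = 0.0468) and -0.72 over control 2 (adjusted p = 0.0461). The table gives 1 amplicon for Xbp1, so spliced and unspliced transcripts were not separated.

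Among 15 tested genes of the unfolded protein response outside the member list, 0 passed against both controls. Ppp1r15a, which restores translation after PERK signalling, stood at 47.0 and 35.6 RPM in the mutants, 206 RPM in control 1 and 79.7 RPM in control 2 (adjusted p = 0.182), and Atf4, the factor translated when PERK is active, at 694 and 447 RPM, 1319.8 RPM and 926 RPM (adjusted p = 0.229). Against control 1, 7 of the 15 were lower in the mutants and 0 were higher, against 6.82% and 9.15% of all tested genes. Against control 2, 1 was lower (Ppp1r15a, log2 fold change -0.94, adjusted p = 0.0364) and 1 was higher (Eif2ak3, below), against 6.89% and 13.8%. Ddit3, which encodes the factor CHOP of prolonged ER stress, stood at 179 and 111 RPM in the mutants, 1389.6 RPM in control 1 and 169.8 RPM in control 2. Trib3, a CHOP target, stood at 15.1 and 7.07 RPM in the mutants, 162 RPM in control 1 and 3.49 RPM in control 2. Herpud1, an ER membrane protein of degradation, stood at 55.3 and 55.0 RPM in the mutants, 268 RPM in control 1 and 43.5 RPM in control 2. In these 3 genes, chosen after their values were seen, control 1 lay far above the other libraries (log2 fold changes of the mutants over control 1 of -3.29, -3.84 and -2.26). The list had a median difference of 1.08 between control 1 and control 2 on the log2 scale, against 0.98 over the 34 members and 0.12 over all tested genes. Eif2ak3, the gene of PERK, stood at 59.6 and 56.4 RPM in the mutants, 50.5 RPM in control 1 and 21.1 RPM in control 2, the lowest library, and was higher than control 2 (log2 fold change 1.42, adjusted p = 0.00569).

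**Figure D3:**
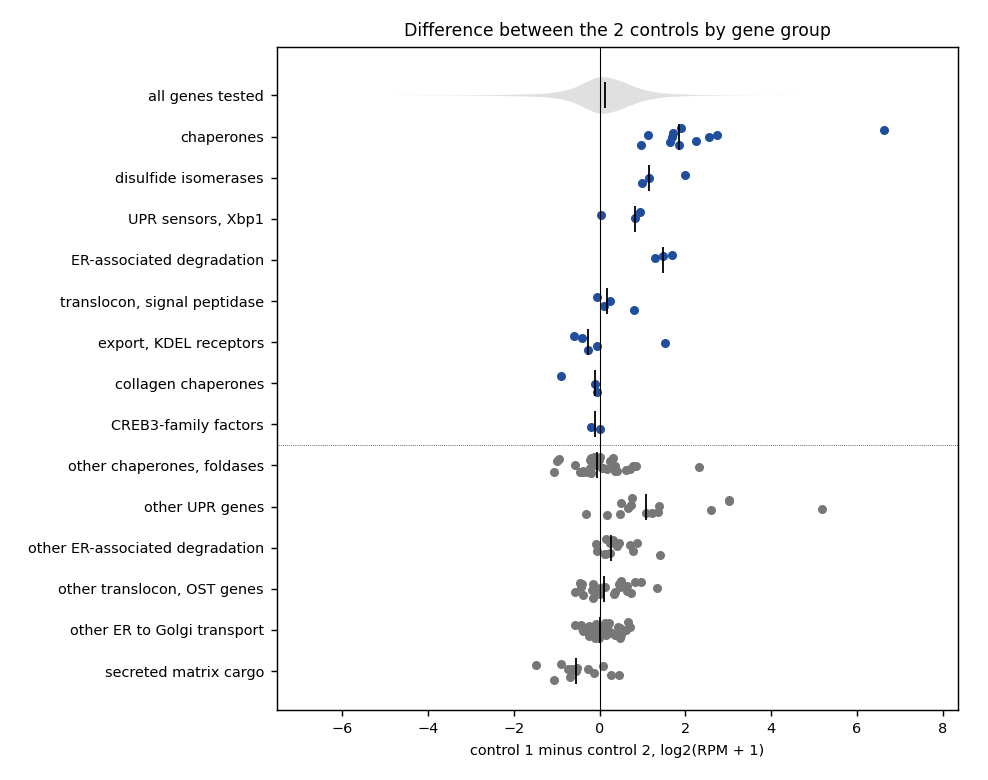
Control 1 minus control 2 on the log2(RPM + 1) scale for each gene, by role (blue, the 34 members) and for 6 lists of other genes (grey); the shape at the top is all 11638 tested genes, and black bars are medians. Chaperones (median 1.85), ER-associated degradation (1.47) and the other genes of the unfolded protein response (1.08) lie above 0, against 0.12 over all tested genes and -0.54 for secreted matrix cargo.

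The 3 genes of ER-associated degradation, which pulls misfolded proteins out of the ER for destruction, were lower in the mutants than in control 1 and did not pass against control 2. Edem1, which trims the sugars of misfolded glycoproteins, stood at 32.3 and 30.6 RPM in the mutants, 86.0 RPM in control 1 and 34.6 RPM in control 2. Sel1l, the scaffold of the ubiquitin ligase, stood at 428 and 297 RPM in the mutants, 754 RPM in control 1 and 231 RPM in control 2. Syvn1, the ligase itself, stood at 130.5 and 118 RPM in the mutants, 259.5 RPM in control 1 and 92.9 RPM in control 2. For Sel1l and Syvn1 the mutants lay between the controls, so the sign of the fold change depended on the control used (-1.08 over control 1 and 0.63 over control 2 for Sel1l, -1.06 and 0.42 for Syvn1). Of 16 other tested degradation genes, 0 passed against both controls, with Ube2j1 and Ube2g2 nearest (adjusted p = 0.288 and 0.389), and 1 of them, the channel gene Derl1, was lower than control 1 (adjusted p = 0.00375), at 239 and 232 RPM in the mutants, 609 RPM in control 1 and 229 RPM in control 2.

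The genes of protein entry were less uneven between the controls. Sec61a1, the pore of the translocon, stood at 349 and 359.9 RPM in the mutants, 405 RPM in control 1 and 374 RPM in control 2, and its log2 fold change over both controls was -0.13 (95% interval -0.65 to 0.38). Ssr1, a subunit of the translocon-associated protein complex, stood at 84.7 and 100.3 RPM in the mutants, against 175 RPM in control 1 and 183 RPM in control 2. The controls lay close together and above both mutants, and the mutant mean was 0.517 of the control mean. The log2 fold change of Ssr1 was -0.95 over both controls (95% interval -1.47 to -0.43), and this comparison had the smallest adjusted p of the 34 members without passing (0.102). Over control 1 it was -0.91 (adjusted p = 0.0245) and over control 2 -0.98 (adjusted p = 0.0176). Ssr3, of the same complex, stood at 205 and 158 RPM in the mutants, 306 RPM in control 1 and 259 RPM in control 2 (adjusted p = 0.254 over both controls). Spcs2, a subunit of the signal peptidase, stood at 247 and 212 RPM in the mutants, 469 RPM in control 1 and 268 RPM in control 2, and was lower than control 1 (log2 fold change -1.03, adjusted p = 0.0144).

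Of 25 other tested genes of the translocon, the signal recognition particle, the signal peptidase and the oligosaccharyltransferase, 0 passed against both controls. The nearest were the oligosaccharyltransferase gene Ostc (98.2 and 120.2 RPM in the mutants, 179 RPM in control 1 and 165 RPM in control 2, adjusted p = 0.208) and the signal peptidase gene Sec11c (22.4 and 16.2 RPM in the mutants, 48.1 RPM in control 1 and 30.5 RPM in control 2, adjusted p = 0.234). Their median log2 fold change over both controls was -0.34. Both mutants lay below both controls for 16 of the 25, against 21.1% of all tested genes.

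Genes of export from the ER showed no shared difference. Sec23a, a COPII coat gene mutated in a human disorder of skull bone, stood at 47.4 and 47.2 RPM in the mutants, 36.1 RPM in control 1 and 43.5 RPM in control 2. Sec24d, its cargo-binding partner in the coat, stood at 270.3 and 238 RPM in the mutants, 255 RPM in control 1 and 266 RPM in control 2. The intervals over both controls were -0.33 to 0.83 for Sec23a and -0.55 to 0.47 for Sec24d on the log2 scale. Mia3 stood at 181 and 131 RPM in the mutants, 273 RPM in control 1 and 94.3 RPM in control 2, with the mutants between the controls. Mia3 was thus the export gene with the widest gap between the controls, 2.90-fold, and passed against neither (adjusted p = 0.0598 and 0.0826).

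The KDEL receptors bring escaped chaperones back from the Golgi. Kdelr2 stood at 306 and 273 RPM in the mutants, 246 RPM in control 1 and 327 RPM in control 2, with overlapping groups. Kdelr3 stood at 137 and 128 RPM in the mutants, 139.6 RPM in control 1 and 213 RPM in control 2, and was lower than control 2 (log2 fold change -0.68, adjusted p = 0.0447) but not than control 1 (-0.07, adjusted p = 0.831). Neither receptor was high in control 1, the library in which the chaperones were high. Of 34 other tested genes of ER to Golgi transport, 0 passed against both controls. Nearest was Mcfd2, a cargo receptor subunit (adjusted p = 0.119), then Tmed9 (adjusted p = 0.241). Mcfd2 stood at 119 and 109.8 RPM in the mutants, 331 RPM in control 1 and 208 RPM in control 2. Its log2 fold changes were -1.53 over control 1 and -0.86 over control 2.

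The 3 listed genes of collagen chaperones and prolyl isomerases were level across the libraries or low in control 1. Serpinh1 stood at 636 and 735 RPM in the mutants, 793 RPM in control 1 and 832 RPM in control 2 (log2 fold change over both controls -0.25, 95% interval -0.84 to 0.34). Fkbp7, an ER prolyl isomerase, stood at 82.0 and 79.5 RPM in the mutants, 70.0 RPM in control 1 and 75.6 RPM in control 2. Both ranges are narrow beside those of the chaperones. Fkbp10, the prolyl isomerase whose loss causes brittle bone disease in humans, stood at 466 and 464 RPM in the mutants, 245 RPM in control 1 and 459 RPM in control 2. Fkbp10 was the 1 member that was higher in the mutants than in control 1 (log2 fold change 0.92, adjusted p = 0.0172), and its interval over control 2 was -0.43 to 0.47.

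CREB3-family factors are cut in the Golgi like ATF6 and drive secretory genes in bone and cartilage. Creb3l1, which raises collagen I genes in mouse osteoblasts, stood at 101 and 119 RPM in the mutants, 87.1 RPM in control 1 and 99.5 RPM in control 2. Creb3l2, which raises Sec23a in mouse cartilage, stood at 133 and 124 RPM in the mutants, against 137 RPM in each control. Their log2 fold changes over both controls were 0.24 (95% interval -0.30 to 0.78) and -0.09 (-0.58 to 0.40).

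The secreted cargo had a median difference of -0.54 between control 1 and control 2 on the log2 scale, with a range of -1.49 to 0.45 over 13 matrix genes, and Col1a2, Fn1 and Col5a2 lay higher in control 1. Col1a1 stood at 16666 and 21009 RPM in the mutants, 5332 RPM in control 1 and 9875 RPM in control 2, and Col6a1 at 3552 and 3732 RPM in the mutants, 768 RPM in control 1 and 1235 RPM in control 2. Control 1 was thus the lowest library for both collagens and the highest for Hspa5. Of 13 secreted matrix genes, 0 passed against both controls together (nearest Col6a1, adjusted p = 0.0702, and Lum, adjusted p = 0.0948). Both mutants lay above both controls for 8 of the 13, against 30.6% of all tested genes, and below both for 2, against 21.1%. For Col6a1 the log2 fold changes were 2.24 over control 1 and 1.56 over control 2. Against control 1 their median log2 fold change was 1.25 (range -0.72 to 2.24), against 0.02 over all tested genes. Against control 2 it was 0.92 (range -1.07 to 1.56), against 0.14, with Col3a1 and Dcn at -1.07 and -0.98. The 13 genes summed to 43634 and 48529 RPM in the mutants, 23816 RPM in control 1 and 30621 RPM in control 2.

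**Figure D4:**
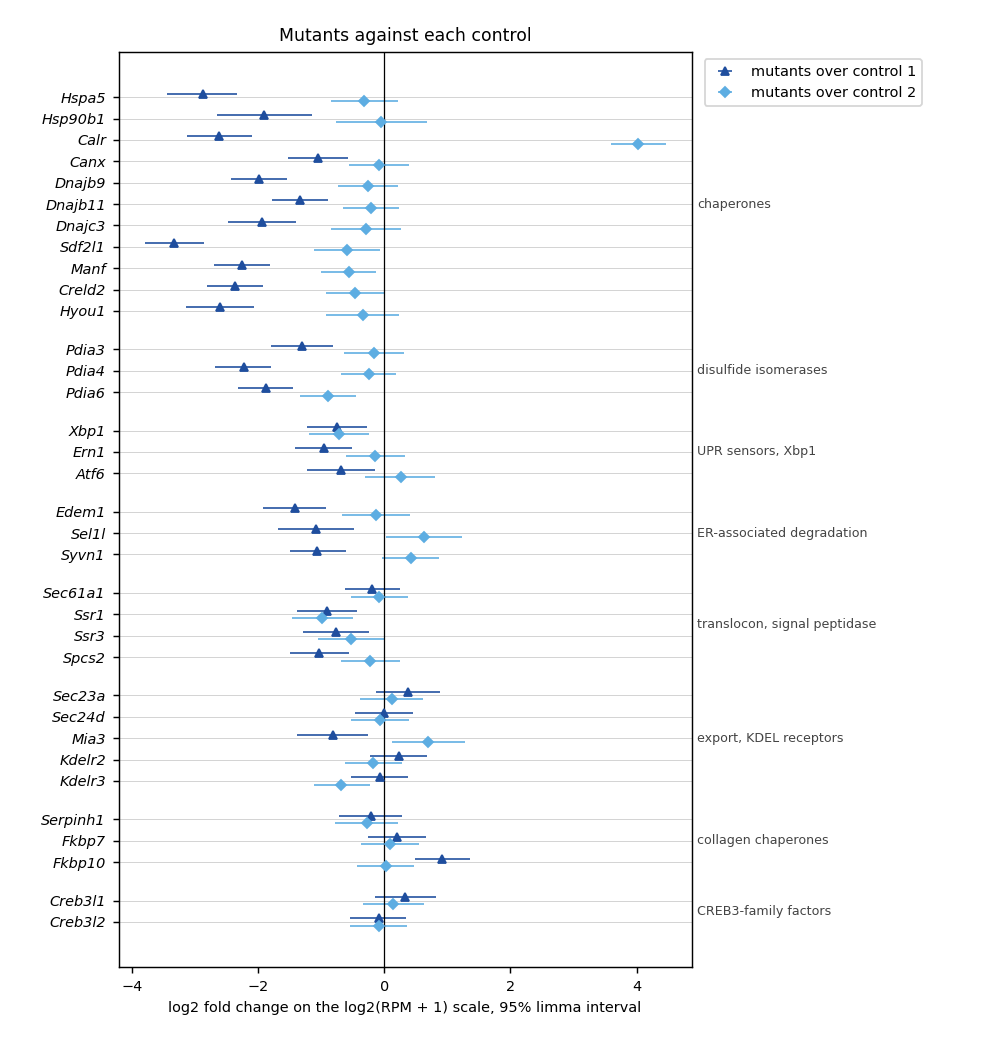
Log2 fold change of the 34 genes in the mutants over control 1 (triangles) and over control 2 (diamonds), on the log2(RPM + 1) scale with 95% limma intervals that rest on the spread between 2 mutants. The triangles of the chaperones and disulfide isomerases lie between -3.33 and -1.05, while their diamonds lie between -0.90 and -0.05 apart from Calr at 4.03; for Xbp1 and Ssr1 both markers lie together below 0.

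Of 30 other chaperones and foldases of the ER, 1 passed against both controls and was lower, against 0.576% of all tested genes lower and 1.73% higher. Fkbp11, a prolyl isomerase gene of secretory cells, stood at 34.4 and 29.6 RPM in the mutants, against 95.1 RPM in control 1 and 109 RPM in control 2. It fell by 1.64 on the log2 scale (SE 0.22, adjusted p = 0.0384), to 0.313 of the control mean. Ero1l, the oxidase that recharges disulfide isomerases, stood at 63.4 and 55.5 RPM in the mutants, 217 RPM in control 1 and 452 RPM in control 2, and did not pass (log2 fold change -2.38, adjusted p = 0.0533). The log2 fold changes of Ero1l were -1.86 over control 1 and -2.91 over control 2. Here control 2 was the highest library, unlike in the chaperones above. Fkbp9 stood at 271 and 302 RPM in the mutants, 151 RPM in control 1 and 175 RPM in control 2. Its log2 fold change was 0.81 over both controls (adjusted p = 0.141), 0.92 over control 1 and 0.70 over control 2. For Ppib and P4hb both mutants lay below both controls (log2 fold changes -0.68 and -0.61, adjusted p = 0.201 and 0.318). The median of these 30 genes between the controls was -0.05 on the log2 scale, against 1.85 over the 11 chaperones of the member list.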

How the data were processed

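Total RNA of 4 libraries was measured with an Ion AmpliSeq mouse transcriptome panel, per the labels' protocols, and the table holds 1 amplicon per gene. The authors deposited 1 table of RPM, amplicon reads scaled to 1000000 reads of the library. How reads were aligned and counted, and on which build, is not stated by the labels or the file header. RPM divides out the library size and nothing else. Symbols were taken from amplicon names, since 27 gene names had been turned into dates. Every non-zero value (100%) was a whole number of reads within 0.01 read, and these recovered reads were used for edgeR 4.0.16 and DESeq2 1.42.0. In these libraries 3 reads, the limit that a count of 0 allows, equal 0.163 to 0.222 RPM, for counting error only.

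The test was limma 3.58.1 in R 4.3.3 on log2(RPM + 1) with eBayes and a mean-variance trend. It was two-sided, kept the 11638 genes that reached 1 RPM in 2 or more libraries, and used an adjusted p (Benjamini-Hochberg) threshold of 0.05. A fold change on this scale understates the change of low genes. The fit was made for the mutants against both controls, against control 1 and against control 2. The members, the lists and the search motifs were chosen with earlier results of these data known, so no adjustment over the list alone is given. The text names every member, and of each other list the genes past the threshold over both controls or else up to 2 with the smallest p. Derl1, Ero1l, Fkbp9, P4hb, Pdia5, Txndc5, Txndc11, Ppib, Ddit3, Trib3, Herpud1, Eif2ak3 and Col1a1 were picked once their values were known. The fit had no replicate block. Alternatives were other pseudocounts, filters, scalings, variance models and tests, a replicate block, and each library left out. Promoter windows come from RefSeq (GRCm38.p6) and gene positions from GENCODE M21. Figures used Python 3.11.15 and matplotlib 3.10.9.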

Additional observations from a re-analysis of the deposited data

How the results depend on the processing

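The count of 0 members past the threshold over both controls held under each pseudocount, filter and scaling, without a trend, with the replicate block and in edgeR, and was 8 in DESeq2. Leaving out 1 library gave 0 to 22 members: 22 without control 2, 5 without control 1, and 0 without either mutant, where no gene of the table passed. The member median then ran from -1.04 without control 2 to -0.17 without control 1. Over all genes, the 268 calls over both controls became 74 with no filter, 93 in edgeR, 1091 in DESeq2 and 424 with the replicate block, 2411 without control 1 and 1859 without control 2. Over control 1, the 22 members called became 0 with no filter and 14 with no trend. Over control 2, the 5 called became 0 with no filter, 3 with quantile normalisation (1 higher and 2 lower, against 1 and 4) and 1, Calr, with no trend, and the member median became -0.32 with median-of-ratios scaling. That scaling brought the median of all genes over control 2 from 0.14 to 0.00 and the calls from 1609 higher and 802 lower to 1283 and 1071, while quantile normalisation called 1492 genes there, 820 higher and 672 lower. The sign of uncalled values over both controls changed for Kdelr2 (0.03 as reported, -0.04 with TMM, -0.06 with median-of-ratios, -0.07 in edgeR, -0.09 in DESeq2) and Calr (0.70 as reported, -1.65 in edgeR and -1.65 in DESeq2). With a library left out, values ran from -0.18 to 0.23 for Kdelr2, -2.62 to 4.03 for Calr, -0.82 to 0.70 for Mia3, -1.08 to 0.63 for Sel1l, -0.13 to 0.05 for Sec24d, -0.69 to 0.26 for Atf6 and -1.06 to 0.42 for Syvn1. The cause was not tested. Replicate numbers are shared between the groups, but no label ties a number to a shared culture, and the correlation between the deviations of mutant 1 and control 1 across genes was 0.164, so the replicate block is an alternative only. With 2 libraries a group, a difference as wide as that between the controls cannot be told from the spread.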
